A study of Mus musculus with 4 samples.

Results

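The Ikaros family comprises 5 genes of the mouse, Ikzf1 to Ikzf5, which encode DNA-binding zinc finger proteins of haematopoietic and other cells. Their members were taken as every probe that the array names Ikzf1 (Ikaros), Ikzf2 (Helios), Ikzf3 (Aiolos), Ikzf4 (Eos) or Ikzf5 (Pegasus), which gave 10 probes for 5 of the 31829 gene names on the array. Of these probes, 8 were tested, and they covered 4 of the 5 genes. The probes of a gene were kept apart, because they may read different transcripts. An 11th probe, A_55_P2023607, carries the name of an Ensembl transcript but is described on the array as Ikaros. Its sequence was not placed on a transcript of Ikzf1, so its link to the gene rests on that description. This probe was added after its values were seen, and is kept outside every count of the 8.

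Ikaros proteins bind DNA through zinc fingers near the N-terminus and pair with each other, within and across the family, through zinc fingers at the C-terminus. They act largely through chromatin complexes such as NuRD and can repress or activate their targets. In lymphoid development, Ikaros is required for the B lineage and restrains the Notch response in T cell precursors, Aiolos accompanies the maturation of B cells, and Helios and Eos are best known in T cells. Splicing of Ikzf1 yields isoforms that differ in the number of DNA-binding fingers.

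The question was how the family behaves when Ebf1-/- progenitors, which arrest before the pro-B cell stage because the transcription factor EBF1 is missing, are given the microRNA Mir195. Both groups were lineage-negative (Lin-) cells from the livers of Ebf1-/- mid-gestation embryos from matings of Ebf1+/- mice on a C57BL/6 background. They were infected with a retrovirus that carries GFP alone (EMPTY) or GFP and Mir195 (Mir195). The Mir195 segment was amplified from a human leukaemia cell line, and the PGK promoter of the vector drives GFP. All cells were cultured on OP9 stroma cells with SCF, IL-7 and Flt3-ligand, each at 10 ng/mL, and the methods state a week of culture as the general condition. Each group had 2 single-colour Agilent arrays, and the sources used here do not say whether the replicates came from separate embryos, whether GFP-positive cells were sorted, or whether stroma cells were removed. The p-values thus measure the spread between these arrays, which may be technical. In such bulk RNA, fewer cells of a type and less RNA per cell cannot be told apart.

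Sequences are shown for the microRNA itself, since it is the agent tested, and for an Ikzf1 and an Ikzf4 probe that proved nearly identical, since this bears on which transcripts they can read. The mature mouse form, from RefSeq (GRCm38.p6, chromosome 11, 70235062 to 70235082, plus strand), is given with its seed, bases 2 to 8, in capitals. In the probes, from the array files, capitals mark the bases that differ between them.
mmu-miR-195a-5p: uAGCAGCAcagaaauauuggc
Ikzf1 probe A_55_P2023612: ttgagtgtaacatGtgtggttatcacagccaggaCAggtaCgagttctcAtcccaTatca
Ikzf4 probe A_55_P1979682: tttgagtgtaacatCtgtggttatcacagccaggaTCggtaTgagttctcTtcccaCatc
Both probes of 60 bases lie in the coding sequence of a C-terminal zinc finger, through which the family members pair. With an offset of 1 base, 53 of 59 overlapping bases were identical and 6 differed, and the longest identical run was 20 bases. Among the other pairs that can be formed from the 11 probes (55 pairs in all), the highest number of identical bases was 27. Against the 39418 other probes on the array, the best ungapped match had 31 identical bases for the Ikzf1 probe and 30 for the Ikzf4 probe. None of these other probes shared 45 or more bases, without gaps, with any of the 11. Whether either of them also captures RNA of the other gene was not tested.

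The 4 arrays shared 1 slide, on which EMPTY took the leading positions and Mir195 the trailing ones, and slide position and virus cannot be told apart. Between 23678 and 24701 of 39429 probes were well above background per array, and 23732 probes were tested. The replicates correlated across probes with r = 0.996 for EMPTY and 0.987 for Mir195. Levels are log2 signals from which each array's 75th percentile was subtracted, and a log2 fold change is the Mir195 mean minus the EMPTY mean. With limma, 0 of 23732 probes (0%) passed an adjusted p of 0.05, 1980 (8.34%) had an unadjusted p under 0.05, and the methods' t-test on replicates of the same number gave 1134 at its threshold and 0 after Benjamini-Hochberg adjustment. Each Mir195 array exceeded each EMPTY array for 23.4% of the probes and was below each for 14.4%.

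Of markers of the cells such a culture may hold, the log2 of the summed signal of 5 B lineage genes, which the brightest of them dominate, was -0.33 to -0.16 with EMPTY and 0.33 to 0.82 with Mir195, with 3 of the 5 well above background on all arrays. For 6 T lineage genes, all detected, it was 3.80 to 3.89 and 3.20 to 3.45. The sums of the myeloid genes (6 of 6 detected on all arrays) were 3.69 to 3.89 with EMPTY and 3.90 to 3.91 with Mir195. These groups nearly touched, at 3.894 and 3.896, and not all of the 6 genes had a positive log2 fold change. The sums of the progenitor genes (4 of 4, 6.28 to 6.41 and 6.48 to 6.52) lay slightly above EMPTY with Mir195. Those of the mast and basophil genes (1 of 4; -2.08 to -1.72 and -2.75 to -2.28) and erythroid genes (1 of 4; -2.39 to -1.94 and -3.44 to -2.49) lay below. Fcer1a, Mcpt8 and Ms4a2 of the mast and basophil genes and Klf1 of the erythroid genes were among those well above background on no array. The groups overlapped for 6 NK and innate lymphoid genes (2.15 to 3.15 and 2.19 to 2.46), 4 megakaryocyte genes (-3.05 to -2.80 and -2.97 to -2.91) and 6 OP9 stroma genes (2.03 to 2.16 and 1.96 to 2.74). The part of these cell types in the values of the family was not tested.

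None of the 8 tested Ikaros family probes passed the adjusted threshold (lowest adjusted p = 0.535 from limma), and their log2 fold changes ran from -0.47 to 0.21. At an unadjusted p under 0.05 there were 2 of 8 probes, both of Ikzf4, against 8.34% of all probes. Each Mir195 array exceeded each EMPTY array for 3 of the 8 (37.5%; 23.4% of all probes) and was below each for 2 (25%; 14.4% of all probes), and the arrays of 3 overlapped. With so few probes these shares single out nothing about the family. Probes of the same gene differed from each other in log2 fold change, by 0.21 for the 2 probes named Ikzf1, by 0.68 at most for Ikzf4 and by 1.12 at most when the added probe A_55_P2023607 is set beside those of Ikzf1, and with 2 arrays against 2 no exact test of such a difference can give less than p = 0.333.

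**Figure D1:**
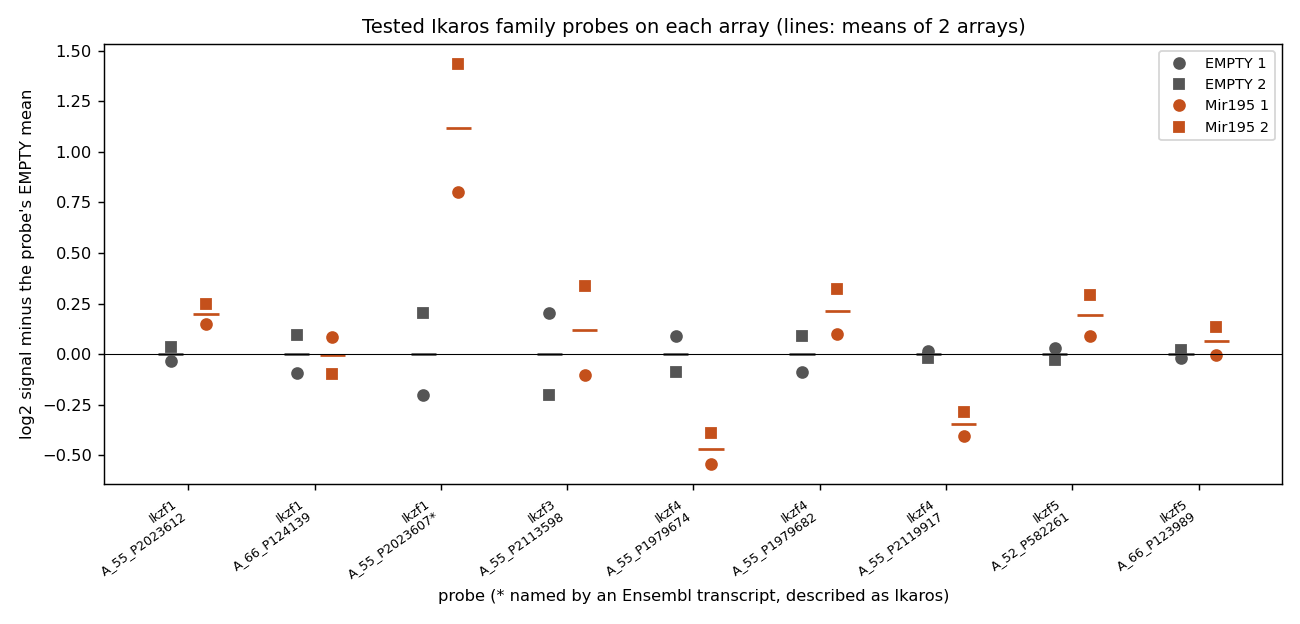
Log2 signal of each tested Ikaros family probe on each array, minus the mean of the probe's 2 EMPTY arrays (vertical axis), for EMPTY (grey) and Mir195 (orange), with circles for replicate 1, squares for replicate 2 and short lines for the group means. The Mir195 arrays of the Ensembl-named Ikaros probe A_55_P2023607, marked with an asterisk, lie farthest above EMPTY, and those of 2 Ikzf4 probes lie below.

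Ikzf1 encodes Ikaros, the founding member of the family, and is located on chromosome 11 (GRCm38.p6, 11684962 to 11772930). Its probe A_66_P124139, which was 121 to 158 times as bright as its local background, measured 2.39 and 2.57 with EMPTY and 2.57 and 2.38 with Mir195. The groups overlapped entirely, and the log2 fold change was -0.0065 (95% interval -0.38 to 0.36, limma adjusted p = 0.996). The interval leaves room for a change of up to about that size in either direction. The probe A_55_P2023612, in the C-terminal finger, measured -1.15 and -1.08 with EMPTY and -0.96 and -0.87 with Mir195. There was no overlap of the groups, and Mir195 was above, with a log2 fold change of 0.20 (SE 0.12, 95% interval -0.11 to 0.51, limma adjusted p = 0.789), which is within the error.

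The probe A_55_P2023607, described as Ikaros, measured 0.96 and 1.37 with EMPTY and 1.96 and 2.60 with Mir195. The lower Mir195 array thus lay above the higher EMPTY array, while the replicates themselves were spread widely (standard deviations 0.29 and 0.45, n = 2 each). The mean difference was 1.12 on the log2 scale (SE 0.27, 95% interval 0.41 to 1.82), a 2.17-fold higher signal. Its unadjusted p from limma was 0.0101 and its adjusted p 0.530, so the probe was not called. Of the 23732 tested probes, 130 (0.548%), itself included, had a log2 fold change of this size or more. Because the probe was added after its values were seen, this rank is not independent support. The signal was 61.3 to 148 times the local background, so dimness does not limit this probe. Without Mir195 replicate 1, the lower of its group, it was 1.43 with an adjusted p of 0.0242 from limma, in a setting in which 904 probes were called in all. There the spread comes from the 2 EMPTY arrays, and the lone Mir195 array is assumed to vary like them. It was 0.80 without Mir195 replicate 2, and over all alternatives the adjusted p from limma or the methods' t-test was under the threshold in that setting alone.

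**Figure D2:**
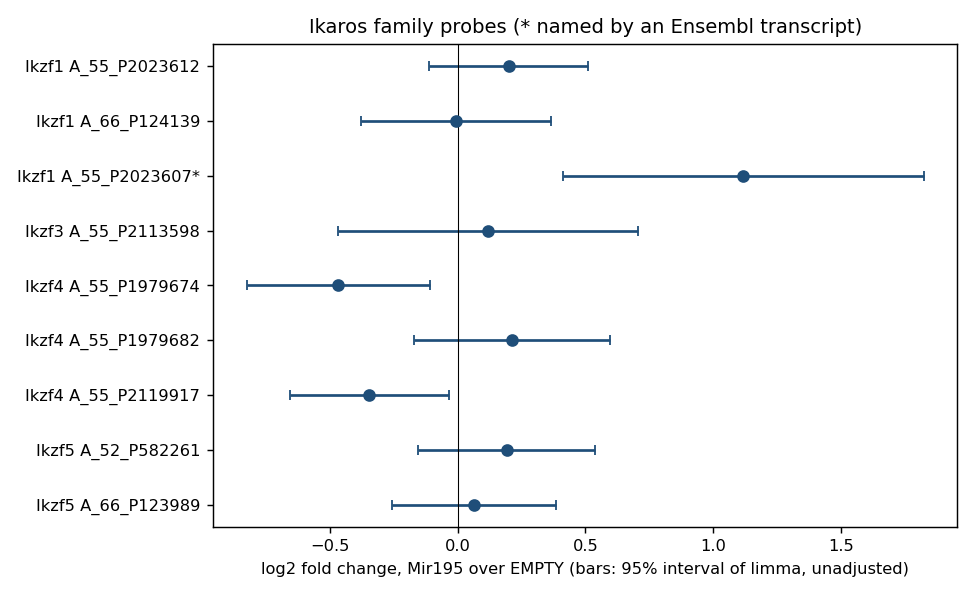
Log2 fold change, Mir195 over EMPTY, of each tested Ikaros family probe (points) with its 95% interval from limma, not adjusted for the number of probes (bars). The intervals of A_55_P2023607 (0.41 to 1.82, asterisk: named by an Ensembl transcript) and of the Ikzf4 probes A_55_P1979674 and A_55_P2119917 do not reach 0; none of the probes passed after adjustment.

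The 3 probes named or described as Ikaros were compared within each array, so that any scaling of the array cancels. A ratio depends on how bright each probe is by itself, and only its change between the groups is read. The log2 ratio of A_66_P124139 to A_55_P2023607 was 1.43 and 1.21 with EMPTY and 0.60 and -0.22 with Mir195, a difference of -1.12. For A_55_P2023612 to A_55_P2023607 it was -2.11 and -2.44 with EMPTY and -2.93 and -3.46 with Mir195, a difference of -0.92. Both ratios were lower on each Mir195 array than on each EMPTY array, so that the higher Mir195 signal of the Ensembl-named probe had no counterpart of its size at the others. The ratio of A_55_P2023612 to A_66_P124139 differed by 0.21, from -3.53 and -3.65 to -3.53 and -3.25, where the nearest arrays of the groups were less than 0.01 apart when rounded. The exact two-sided permutation test gave p = 0.333 for each of the 7 pairs of probes compared within a gene, before and after Benjamini-Hochberg adjustment, and this is the smallest p that 2 arrays against 2 allow.

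**Figure D3:**
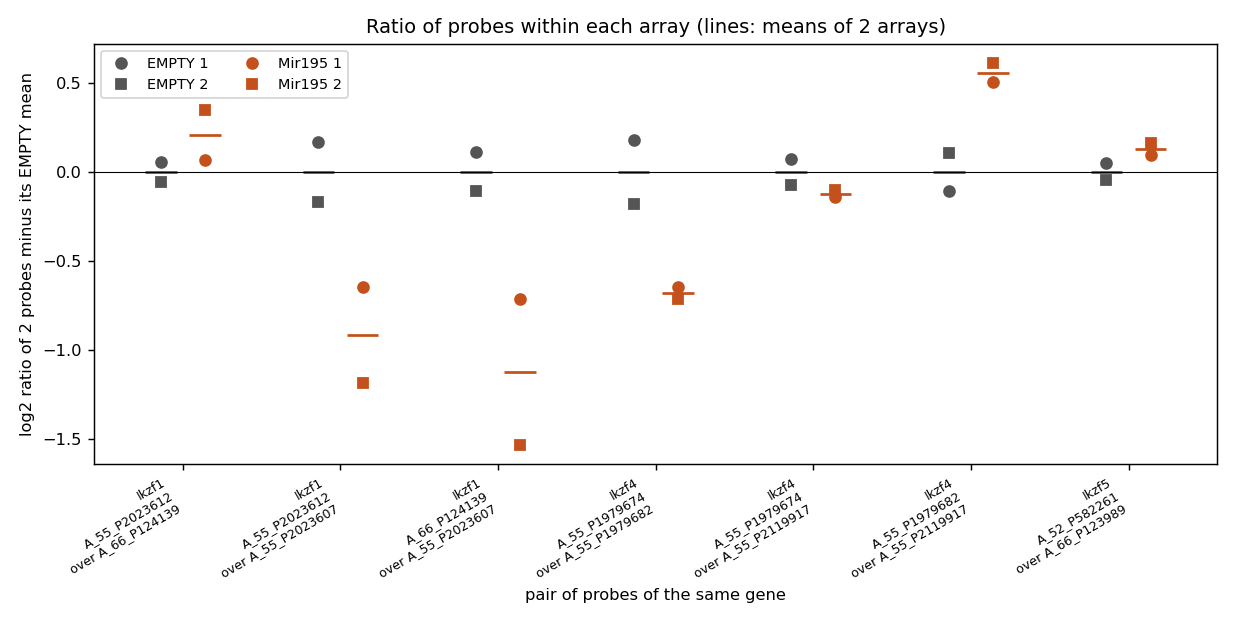
Log2 ratio of 2 probes of the same gene within each array, minus its mean over the 2 EMPTY arrays (vertical axis), for EMPTY (grey) and Mir195 (orange), with lines for the group means. Ratios that involve A_55_P2023607, described as Ikaros, or A_55_P1979682 of Ikzf4 lie farthest from EMPTY, with differences of -1.12, -0.92, -0.68 and 0.56.

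Ikzf4 encodes Eos, a partner of Foxp3 in regulatory T cells, and lies on chromosome 10 from 128630839 to 128669671. The probe A_55_P1979674 measured -1.39 and -1.57 with EMPTY and -2.02 and -1.87 with Mir195. The groups did not overlap and Mir195 was below, at a log2 fold change of -0.47 (SE 0.14, limma unadjusted p = 0.0207 and adjusted p = 0.535), a 1.38-fold lower signal. The probe A_55_P2119917 measured -1.63 and -1.66 with EMPTY and -2.05 and -1.93 with Mir195. Here too the groups did not overlap and Mir195 was below, at a log2 fold change of -0.35 (SE 0.12, limma unadjusted p = 0.0365 and adjusted p = 0.562), a 1.27-fold lower signal. These 2 probes, 5.99 to 10.7 times as bright as their background, kept their direction under the 9 alternatives that can change a log2 fold change. They ran from -0.57 to -0.32 for A_55_P1979674 and from -0.44 to -0.24 for A_55_P2119917. Without overlap of the groups, the omission of an array could not turn their direction. The other centrings moved all probes by only -0.098 and 0.019.

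The third Ikzf4 probe, A_55_P1979682, is the one that nearly matches the Ikzf1 finger probe. It measured -3.62 and -3.44 with EMPTY and -3.43 and -3.21 with Mir195, so that each Mir195 array exceeded each EMPTY array, by 0.01 at the nearest. The difference was 0.21 on the log2 scale (SE 0.15, limma adjusted p = 0.819), beside 0.20 for the Ikzf1 probe A_55_P2023612 with which it shares 53 bases. Within the arrays, the log2 ratio of A_55_P1979674 to A_55_P1979682 was 2.23 and 1.87 with EMPTY and 1.41 and 1.34 with Mir195, a difference of -0.68. That of A_55_P1979682 to A_55_P2119917 differed by 0.56, without overlap of the groups. The log2 ratio of the other two, A_55_P1979674 to A_55_P2119917, differed by -0.12. The log2 fold changes of the 3 Ikzf4 probes thus had no common sign.

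Ikzf3 encodes Aiolos, which lies on chromosome 11 from 98464610 to 98546031, and was read by 1 probe. A_55_P2113598 measured -4.96 and -5.36 with EMPTY and -5.26 and -4.82 with Mir195. The groups overlapped, and the log2 fold change was 0.12 (95% interval -0.47 to 0.71, limma adjusted p = 0.943). The spot was well above background on all 4 arrays, yet only 2.34 to 2.66 times as bright as its surroundings, and with the normexp background correction the log2 fold change was 0.30. Its direction also turned with single arrays, to -0.085 without EMPTY replicate 2 and to -0.10 without Mir195 replicate 2.

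Ikzf5 encodes Pegasus, a more distant member of the family, and lies on chromosome 7 from 131388649 to 131410518. The probe A_52_P582261 measured -0.57 and -0.63 with EMPTY and -0.52 and -0.31 with Mir195. There was no overlap of the groups, and Mir195 was above, with a log2 fold change of 0.19 (SE 0.13, limma adjusted p = 0.821). The probe A_66_P123989 measured -1.30 and -1.26 with EMPTY and -1.29 and -1.14 with Mir195. Here the groups overlapped, and the log2 fold change of 0.064 (95% interval -0.26 to 0.38, limma adjusted p = 0.943) was within the spread. The log2 ratio of these probes differed by 0.13 between the groups.

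Ikzf2 encodes Helios and lies on chromosome 1 from 69531207 to 69687351. Neither of its probes could be tested. A_52_P413515 was well above background on none of the 4 arrays, with spots 1.61 to 1.74 times as bright as their surroundings. A_66_P122551 was well above background on EMPTY replicate 1 alone, and measured -5.44 and -6.59 with EMPTY and -6.43 and -6.95 with Mir195. EMPTY replicate 2 lay below Mir195 replicate 1, and no fold is given.

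**Figure D4:**
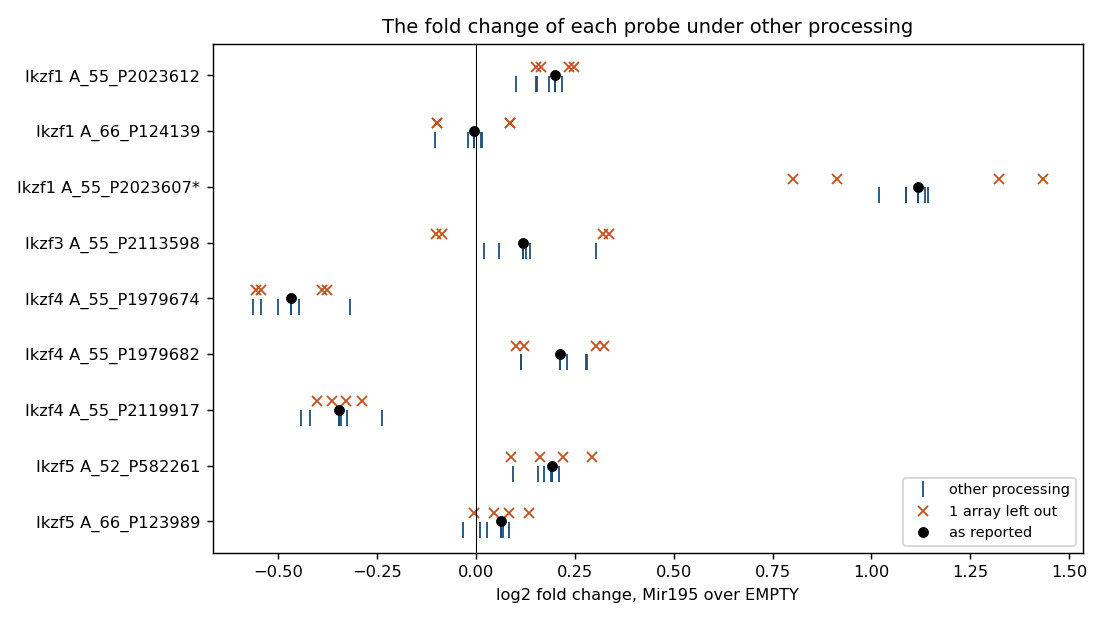
Log2 fold change of each tested Ikaros family probe (asterisk: named by an Ensembl transcript) as reported (black points), under other processing (blue bars) and with 1 array left out (orange crosses). A_55_P2023607 stayed between 0.80 and 1.43, and the values of A_66_P124139, A_55_P2113598 and A_66_P123989 lie on both sides of 0.

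The genes whose pattern over the 4 arrays was most like that of the brightest tested probe of each member were sought among 12570 named genes detected on all arrays. Likeness was the root mean square difference of log2 values after each probe's own mean was subtracted, and it describes 4 arrays only. In the pattern of Ikzf1 (A_66_P124139), EMPTY replicate 2 and Mir195 replicate 1 lay above the other arrays. It was shared within 0.05 by 1334 genes, with Dpp6 (0.0021) and Rfc3 (0.0042) nearest. That of Ikzf5 (A_52_P582261) was shared by 385 genes, with Dennd5a (0.0036) and Phf21a (0.0044) nearest. The number within a fixed distance also depends on how much a probe varies, and the standard deviation over the 4 arrays was 0.11 for this Ikzf1 probe, 0.14 for Ikzf5, 0.25 for Ikzf3, 0.29 for Ikzf4 and 0.72 for A_55_P2023607. For Ikzf3 there were 40 genes, led by Dync1li2 (0.013) and P3h3 (0.014). For Ikzf4 (A_55_P1979674) there were 11, led by Smagp (0.022) and Cd74 (0.029), the invariant chain of MHC class II. For A_55_P2023607 there were 0 genes within 0.05. The nearest, beyond that distance, were Mir17hg (0.067), the host transcript of the miR-17-92 microRNA cluster, and Airn (0.074).

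Beyond the family itself, lists of genes around it were read in the same fit, each gene by its brightest tested probe. Over all 19042 genes so tested, 9944 had a positive and 9098 a negative log2 fold change, with a median of 0.0097, and each Mir195 array exceeded each EMPTY array for 23.1% and was below each for 14.7%. No gene of any of the 4 lists passed the adjusted threshold with limma.

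The partners through which Ikaros proteins act on chromatin, which are the NuRD subunits, the Sin3 and CtBP corepressors and Smarca4, were all 18 tested. Each Mir195 array exceeded each EMPTY array for 5.56% of them and was below each for 5.56%, against 23.1% and 14.7% of all tested genes. The median log2 fold change of the partners was -0.016, with 6 positive and 12 negative values. The lowest was -0.16 for Sin3b, a scaffold of histone deacetylases, whose arrays did not overlap, although its other probe had 0.35. Chd4, the ATPase of NuRD, measured 5.26 and 5.34 with EMPTY and 5.41 and 5.43 with Mir195, without overlap and with a log2 fold change of 0.12 (limma adjusted p = 0.888). Mta3, a NuRD subunit of B cells, had the highest value, 0.47, which rested on Mir195 replicate 2 (2.54, the other 3 arrays being at 1.61 or below), and its other probe had 0.098. The regulators of Ikaros proteins were casein kinase 2, the phosphatase PP1 and the Crbn ubiquitin ligase. Through this ligase, thalidomide analogues remove Ikaros and Aiolos in human cells. The median over these 11 genes was 0.026, with 8 positive and 3 negative values. By the brightest probe of each gene, they ran from -0.074 for Rbx1 to 0.086 for Ppp1cc. Rbx1 is the RING subunit of the ligase, and Ppp1cc a catalytic subunit of PP1. Ppp1cc was the one gene of this list whose arrays did not overlap, with Mir195 above (9.09%, against 23.1% of all tested genes). The share with each Mir195 array below each EMPTY array was 0%, against 14.7%. The 3 probes of Ppp1cc ran from -0.052 to 0.086. The casein kinase 2 gene Csnk2a2, named here after its values were seen, had 0.011 at its brightest probe and 0.67 at its other probe.

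Of 13 B lineage genes known as targets of Ikaros or Aiolos, 12 were tested, and the median was 0.035. Each Mir195 array exceeded each EMPTY array for 3 of 12 (25%, against 23.1% of all tested genes). It was below each for 5 of 12 (41.7%, against 14.7%). With so few genes these shares single out nothing about the list. Rag1 and Rag2, which cut the antigen receptor genes, were among those above. Rag1 measured -2.20 and -2.24 with EMPTY and -1.87 and -1.54 with Mir195 (log2 fold change 0.52, limma adjusted p = 0.535). Rag2 measured -0.30 and -0.35 with EMPTY and -0.058 and 0.062 with Mir195 (log2 fold change 0.32, limma adjusted p = 0.590). The third was the cytokine receptor gene Flt3, with 0.16. In the opposite direction lay Dntt, which adds nucleotides at the joints of antigen receptor genes, with 0.026 and 0.059 with EMPTY and -0.77 and -0.23 with Mir195 (log2 fold change -0.54, limma adjusted p = 0.605). Ccnd2, a cyclin of the G1 phase, had -0.27, Vpreb2 of the surrogate light chain -0.19, the cell cycle inhibitor Cdkn1b -0.16 and the adaptor Blnk -0.098. For some of these the nearest arrays of EMPTY and Mir195 were close. They were at 4.48 and 4.44 for Ccnd2, -4.47 and -4.51 for Vpreb2, and 1.96 and 1.92 for Cdkn1b. The other probe of Cdkn1b had 0.16. The genes known as targets thus lay on both sides of 0. The summed B lineage markers given above moved with Rag1 and Rag2 in direction, and their part was not tested.

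Of 8 Notch pathway genes that Ikaros restrains in T cell precursors, 7 were tested, with a median of 0.074. Each Mir195 array exceeded each EMPTY array for 14.3% of the 7 and was below each for 14.3% (23.1% and 14.7% of all tested genes). Hes1, a transcriptional target of Notch, had the highest value, 0.79, which rested on Mir195 replicate 2 (-5.20 and -4.82 with EMPTY, -4.92 and -3.53 with Mir195), and its arrays overlapped. Notch1, the receptor, measured -2.47 and -2.28 with EMPTY and -1.98 and -2.09 with Mir195, without overlap (log2 fold change 0.34, limma adjusted p = 0.609). Ptcra, the pre-T cell receptor chain, lay lower with Mir195 without overlap (-3.11 and -2.98 with EMPTY, -3.32 and -3.44 with Mir195), at a log2 fold change of -0.34 (limma adjusted p = 0.590). Il2ra, a receptor chain for IL-2, had the lowest value, -0.58, with overlap of the groups. The summed T lineage markers, mostly the signal of Thy1, were lower on the Mir195 arrays. They lay on the same side as Ptcra and Il2ra and opposite to Notch1, and their part was not tested.

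**Figure D5:**
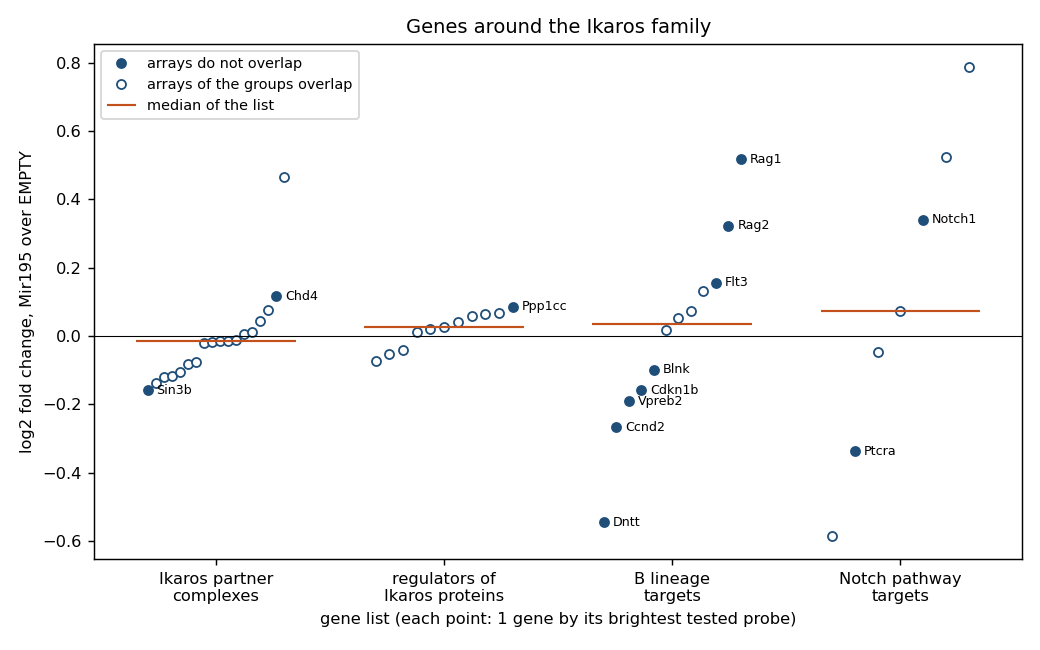
Log2 fold change, Mir195 over EMPTY, of each gene in 4 lists around the Ikaros family (1 point per gene, by its brightest tested probe), filled where the arrays of the groups do not overlap, with the median of each list (orange lines). The medians lie between -0.016 and 0.074, and the B lineage targets without overlap lie on both sides of 0, from -0.54 for Dntt to 0.52 for Rag1.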

How the data were processed

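The authors deposited, per array, the intensity of each spot from the scanner software (Agilent Feature Extraction 11.5.1.1 per the submitters' processing notes), with local background and a spatial trend subtracted. The authors also deposited a log2 table, scaled in GeneSpring to each 75th percentile, which served as an alternative. Here spots without an outlier flag were averaged on the log2 scale per probe, and the 75th percentile over all non-control probes was subtracted. A probe was tested where both arrays of 1 or both viruses showed it well above background, and 92 with an outlier spot were left out. The tests were two-sided, with lmFit and eBayes of limma 3.58.1 (R 4.3.3, data.table version 1.17.8), Benjamini-Hochberg adjustment over 23732 probes and a threshold of 0.05. The methods were tested on simulated data.

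Arrays were grouped by their titles. Symbols came from GRCm38.p6 by accession for 26055 probes, and otherwise from the array. The members, lists and tests were chosen with earlier results of these data known. Named were all probes of the members, the genes that were highest, lowest or without overlap in each list, and the 2 genes nearest in pattern to each member. Igll1 had no probe under that symbol, and Nrarp was not tested because it was too dim. Alternatives were other background corrections, scalings, filters and fits, the authors' table, a replicate block, the methods' t-test and the omission of each array. The number of arrays limits the precision. The values of some marker genes are not reported here.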

Additional observations from a re-analysis of the deposited data

How the results depend on the processing

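Filters, the other fits and the block leave a log2 fold change as it is, and another centring also leaves the difference between 2 probes. All 49 recomputed differences between probes of the same gene kept their sign under the 7 alternatives that can change their size. These differences include those with the added A_55_P2023607, chosen after its values were seen. The groups did not overlap for any of these ratios, so the omission of an array could not turn a sign. Only the normexp correction, quantile normalization and the authors' table could. Likewise, the omission of an array could not turn a single probe whose groups did not overlap. Under the 9 that can change a log2 fold change, 72 of 81 recomputed values kept their direction and their side of the threshold. These are values of single Ikaros family probes, the added A_55_P2023607 included. Those that turned were A_66_P124139 of Ikzf1, at 0.015 after quantile normalization, 0.012 with the percentile over detected probes and between -0.10 and 0.087 with 1 array left out (0.087 without EMPTY replicate 2, 0.086 without Mir195 replicate 2). A_55_P2113598 of Ikzf3 ran from -0.10 to 0.34 with 1 array left out (-0.085 without EMPTY replicate 2, -0.10 without Mir195 replicate 2). A_66_P123989 of Ikzf5 was -0.034 with median scaling and ran from -0.0061 (without Mir195 replicate 2) to 0.13. Median scaling moved every probe by the same -0.098, and the percentile over detected probes by 0.019, which accounts for the changes of sign in these settings; for the others the cause was not tested. A_55_P2023607 passed the threshold without Mir195 replicate 1 (1.43, adjusted p = 0.0242 from limma), where the spread is that of the EMPTY pair alone. Over all probes, limma called 3 with median scaling and between 0 and 904 with 1 array left out (904 without Mir195 replicate 1, 3 without Mir195 replicate 2). At an unadjusted p under 0.05, 1483 probes were higher and 497 lower with Mir195, against 3418 and 336 with the normexp correction (offset 50), 1267 and 695 after quantile normalization, and 1112 and 808 when scaled by the median. With the same shift of all probes under median scaling, the median of the partner list was -0.11, of the regulators -0.072 and of the B lineage targets -0.063. That of the B lineage targets moved to -0.041 without EMPTY replicate 1 and to -0.061 without Mir195 replicate 1, and that of the Notch genes to 0.22 with the normexp correction.

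With the replicate number as a block, 5 probes were called, none of the Ikaros family, and 2203 had an unadjusted p under 0.05. The deviations of same-numbered arrays from their group means correlated with r = -0.10, so the numbers are not shown to pair the samples. The crossed pairing, added after seeing the data, called 0 probes (limma; 2203 at an unadjusted p under 0.05).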
